A study of Homo sapiens with 10 samples.

Results

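Expression of 10 genes of the S100 family was examined in HCT116 cells and in DNMT1 KO cells, by position within the gene cluster on chromosome 1. The genes were taken by symbol from the 58884 Ensembl genes of the count tables, and 9 of the 10 passed the filter on low counts that left 19279 genes to test. S100A10, S100A11, S100A9, S100A6, S100A4, S100A3, S100A2, S100A16 and S100A14 lie on chromosome 1, given here in order of position, and S100P lies on chromosome 4. HCT116 is a human colorectal carcinoma line, labelled WT. The DNMT1 KO line is a single published derivative of it in which exons of DNMT1, the maintenance DNA methyltransferase gene, were deleted, and which according to the study still makes little of a truncated protein. Both were grown untreated in the same medium. Polyadenylated RNA was sequenced from 6 HCT116 libraries (replicates 1, 2, 3, 7, 8 and 9) and 4 DNMT1 KO libraries (replicates 1 to 4), which the study describes as independent cultures. The labels give batch 1 for replicate 1 of each group, batch 2 for replicates 2 and 3 of each group, batch 3 for DNMT1 KO replicate 4 and batch 4 for HCT116 replicates 7 to 9. Depth ran from 26700853 to 85991812 counts per library. DNMT1 KO replicate 4 stood apart in its low counts, of which 39.9% were even against 64.4 to 70.0% in the other 9 libraries. The cause was not tested. Without this replicate 5 of the S100 genes described below were called lower in place of 7. DNMT1 itself was lower in DNMT1 KO cells, at 14.1 to 22.3 CPM (counts relative to library totals scaled by TMM, the trimmed mean of M values) against 89.7 to 263 CPM, a change of -2.97 on the log2 scale (SE 0.33, adjusted p = 1.74e-05 in edgeR).

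S100 proteins are small calcium-binding proteins of the EF-hand type that mostly work as dimers. Calcium exposes a surface by which they bind partners such as annexins, cytoskeletal proteins and enzymes, and several are also secreted. Most of their genes sit in a cluster on the long arm of chromosome 1, the epidermal differentiation complex, next to genes of the skin barrier. In epithelia S100A6, S100A10, S100A11, S100A14 and S100A16 are common members, S100A8 and S100A9 mark myeloid cells, and S100A4 and S100P are widely studied in tumour cell spread.

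All 9 tested S100 genes had a log2 fold change below 0 in DNMT1 KO cells, and 7 were called lower, which took a log2 value below -1 together with an adjusted p under 0.05. The 7 were S100A11, S100A6, S100A4, S100A3, S100A2, S100A16 and S100A14. Of all 19279 genes tested, 10482 had a log2 fold change below 0, 6.49% were called lower and 7.42% higher. S100A10 and S100P, neither of them called, differed in direction between batches 1 and 2. The median log2 fold change of the 9 was -1.56 against -0.07 over all genes tested. That median is the value of S100P (SE 1.15). Scaling by library totals alone moved the median over all genes to 0.14 and the calls to 1877 higher and 956 lower, from 1431 and 1251, and with it 4 of the 9 S100 genes were called lower, all 9 still being below 0. Among the 9, the largest decreases were those of S100A14 and S100A16, which are next to each other. How steady the call was differed by gene. S100A14, S100A16 and S100A6 were called in all 22 other fits that were run, S100A4 in 21, S100A11 in 15, S100A3 in 13 and S100A2 in 6. In these bulk libraries fewer cells that make an RNA and less of that RNA per cell cannot be told apart.

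**Figure D1:**
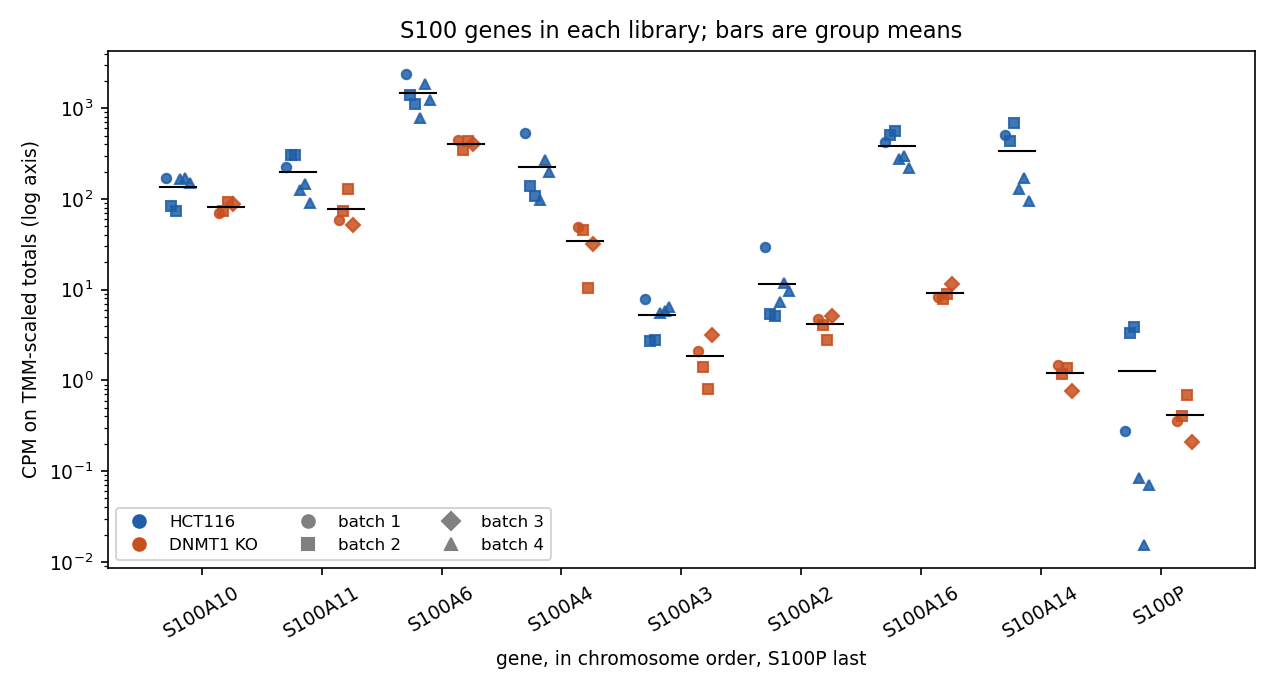
CPM of the 9 tested S100 genes in each library on a log axis, in order along chromosome 1 with S100P last. Each point is a library, its shape the batch, and the bar the group mean. For S100A6, S100A4, S100A16 and S100A14 every DNMT1 KO library lies below every HCT116 library.

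The libraries of the groups did not overlap for 4 of the 9 genes, S100A6, S100A4, S100A16 and S100A14, each lower in DNMT1 KO cells. None was separated in the other direction. Over all genes tested, 6.79% were separated with DNMT1 KO cells lower and 8.4% with DNMT1 KO cells higher. Such a separation fixes the two-sided p of the exact permutation test over libraries at 0.00952, the smallest it can give here. For these 4 genes the test therefore adds nothing to the separation itself, and its splits ignore the batches. For S100A2 the overlap was slight, since the highest DNMT1 KO library (5.11 CPM) exceeded the lowest HCT116 library (5.10 CPM) by a narrow margin.

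S100A14 (ENSG00000189334, hg38 chromosome 1, 153614255 to 153616986, minus strand) encodes an S100 protein found mainly in epithelial cells. In HCT116 libraries it ranged from 95.5 to 683 CPM with a median of 304 CPM. DNMT1 KO replicates 1 to 4 were at 1.46, 1.19, 1.36 and 0.764 CPM, from 58, 67, 86 and 22 counts. The 4 DNMT1 KO libraries were thus close together and far below all HCT116 libraries, which themselves fell into a higher set (batches 1 and 2, 439 to 683 CPM) and a lower set (batch 4, 95.5 to 170 CPM). Its log2 value changed by -8.13 (SE 0.71, adjusted p = 1.5e-06 in edgeR), a 279-fold difference that ranked 56 in size among the 1251 genes called lower.

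S100A16 (ENSG00000188643, hg38 chromosome 1, 153606886 to 153613145, minus strand) is a widely expressed S100 gene next to S100A14, with 1.1 kb between their annotated ends. It ranged from 221 to 556 CPM in HCT116 libraries, with a median of 360 CPM. The DNMT1 KO libraries were at 8.33, 7.96, 8.91 and 11.5 CPM. Here too the HCT116 libraries of batch 4 (221 to 298 CPM) were the lowest of their group, and all were above the DNMT1 KO libraries. On the log2 scale S100A16 differed by -5.37 (SE 0.36, adjusted p = 1.43e-07 in edgeR), a 41.4-fold difference, and by p-value the gene ranked 48 of 19279.

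To show what lies in front of the genes with the largest decreases, of the most abundant gene and of a gene not called, the 250 bases before the RefSeq start site (GRCh38.p14, 5′ to 3′ on the strand of the gene) are given for S100A14, for the upstream start of S100A16, and for S100A6 and S100A10. Capitals mark CG dinucleotides, the sites of DNA methylation, which was not analysed here.
S100A14, chr1:153616326-153616575, minus strand: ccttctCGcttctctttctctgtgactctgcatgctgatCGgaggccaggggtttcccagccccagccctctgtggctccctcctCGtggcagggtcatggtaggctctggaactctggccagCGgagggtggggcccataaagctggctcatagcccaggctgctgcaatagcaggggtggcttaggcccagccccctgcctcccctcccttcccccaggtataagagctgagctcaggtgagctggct
S100A16, chr1:153613138-153613387, minus strand: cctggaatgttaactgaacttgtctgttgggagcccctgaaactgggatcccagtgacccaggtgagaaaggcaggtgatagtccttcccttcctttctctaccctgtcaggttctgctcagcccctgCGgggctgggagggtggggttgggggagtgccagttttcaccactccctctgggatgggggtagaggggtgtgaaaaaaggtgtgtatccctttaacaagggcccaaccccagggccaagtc
S100A6, chr1:153535992-153536241, minus strand: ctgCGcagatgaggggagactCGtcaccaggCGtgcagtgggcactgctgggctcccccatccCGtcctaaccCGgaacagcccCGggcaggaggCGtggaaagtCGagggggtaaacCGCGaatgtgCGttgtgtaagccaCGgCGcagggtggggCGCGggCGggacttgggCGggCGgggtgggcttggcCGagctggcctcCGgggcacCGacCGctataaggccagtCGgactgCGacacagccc
S100A10, chr1:151993860-151994109, minus strand: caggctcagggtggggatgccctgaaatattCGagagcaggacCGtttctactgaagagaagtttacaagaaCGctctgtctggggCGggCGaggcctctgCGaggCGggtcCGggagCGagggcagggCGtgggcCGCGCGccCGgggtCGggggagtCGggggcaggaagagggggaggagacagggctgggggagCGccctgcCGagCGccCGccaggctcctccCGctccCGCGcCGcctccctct

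S100A14 had 4 CG in this window and S100A16 had 1 at the start shown and 6 at its other RefSeq start. S100A6 and S100A10 had 24 each, S100A11 had 15, S100A4 had 7, and S100A3, S100A9 and S100P had 4 each. S100A2 had 4 and 3 at its starts. Over 35114 RefSeq promoters the median was 11 CG, and 29.3% held fewer than 4. The members with CG counts above that median were therefore S100A10, S100A11 and S100A6, whose log2 fold changes were -0.74, -1.34 and -1.84. Of the members below it, S100A2 (-1.47), S100A3 (-1.49) and S100P (-1.56, not called) changed less than S100A6. S100A4 (-2.70), S100A16 (-5.37) and S100A14 (-8.13) changed more, and S100A9 was not tested. Whether the fold change goes with the CG count was not tested. The E-box CAGGTG or CACCTG, read by repressors such as SNAI1 and ZEB1, was searched on both strands. It was present in 6 of the 12 promoter windows of the members: S100A9, S100A4, S100A2 (1 of its starts), S100A16 (the start shown, with 2 matches, at -191 and -178 from the start site), S100A14 (at -14) and S100P. Of all promoters, 17.5% held it. The AP-1 motif TGACTCA or TGAGTCA was in the windows of S100A3 and of 1 start of S100A2, and in 4.2% of all promoters. Which start site the cells use was not measured, and both motifs were chosen with the fold changes known.

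S100A6 (calcyclin, ENSG00000197956, hg38 chromosome 1, 153534599 to 153536244, minus strand) was the most abundant of the family and binds the calcyclin-binding protein CACYBP. HCT116 libraries ranged from 774 to 2369 CPM with a median of 1326 CPM. DNMT1 KO libraries were at 441, 346, 435 and 408 CPM. All of them lay below the lowest HCT116 library, and they varied less than the HCT116 libraries did. The difference was -1.84 on the log2 scale (SE 0.31, adjusted p = 0.000676 in edgeR), or 3.57-fold lower.

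S100A4 (ENSG00000196154, hg38 chromosome 1, 153543613 to 153550136, minus strand) binds non-muscle myosin IIA and is best known from studies of metastasis. Its HCT116 libraries ranged from 96.3 to 531 CPM with a median of 168 CPM, and its DNMT1 KO libraries were at 49.2, 46.0, 10.4 and 32.1 CPM. HCT116 replicate 1 was the highest and DNMT1 KO replicate 3 the lowest, and the groups did not overlap. S100A4 had a fold change of -2.70 in log2 units (SE 0.55, adjusted p = 0.00283 in edgeR), or 6.5-fold. Without DNMT1 KO replicate 3 the log2 fold change was -2.37 and it was still called. Within batch 2 alone it was -2.13 with an adjusted p of 0.0996.

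S100A3 (ENSG00000188015, hg38 chromosome 1, 153547329 to 153549258, minus strand), a cysteine-rich member of the hair cuticle, lies inside the annotated span of S100A4 on the same strand but shares no exonic base with it. It was at 2.75 to 7.85 CPM in HCT116 libraries, median 5.66 CPM, and at 2.10, 1.40, 0.809 and 3.16 CPM in DNMT1 KO libraries. DNMT1 KO replicate 4 exceeded HCT116 replicates 2 and 3, so the groups overlapped. In log2 units the change was -1.49 (SE 0.44, adjusted p = 0.0306 in edgeR). The call was lost without HCT116 replicate 1, 7, 8 or 9 and without DNMT1 KO replicate 1, 2 or 3 (adjusted p = 0.0533 to 0.0998).

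S100A2 (ENSG00000196754, hg38 chromosome 1, 153561108 to 153567890, minus strand) is a nuclear S100 protein of stratified epithelium. HCT116 libraries were at 5.10 to 29.8 CPM, median 8.52 CPM, with replicate 1 apart from the rest. DNMT1 KO libraries were at 4.72, 4.07, 2.81 and 5.11 CPM. Its fold change of -1.47 in log2 units (SE 0.48) was close to the limit of the call (adjusted p = 0.0489 in edgeR). Without HCT116 replicate 1 it was -0.88 with an adjusted p of 0.0907, and the call was also lost without HCT116 replicate 7, 8 or 9 or any DNMT1 KO library (adjusted p = 0.0546 to 0.133).

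S100A11 (calgizzarin, ENSG00000163191, hg38 chromosome 1, 152032506 to 152047907, minus strand) binds annexin A1. Its HCT116 libraries ranged from 90.4 to 308 CPM, with a median of 184 CPM. The DNMT1 KO libraries were at 59.1, 74.0, 129 and 51.0 CPM, so replicate 3 was above 2 of the HCT116 libraries of batch 4. The groups differed by -1.34 in log2 units (SE 0.39, adjusted p = 0.0268 in edgeR). The call was lost without HCT116 replicate 1 or 2 and without DNMT1 KO replicate 1, 2 or 4 (adjusted p = 0.0518 to 0.0971).

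S100A10 (p11, ENSG00000197747, hg38 chromosome 1, 151982915 to 151993859, minus strand) does not bind calcium and forms a complex with annexin A2. It was at 73.4 to 170 CPM in HCT116 libraries, median 159 CPM, and at 69.8, 73.2, 92.3 and 88.8 CPM in DNMT1 KO libraries. HCT116 replicates 2 and 3 of batch 2 (83.9 and 73.4 CPM) lay among the DNMT1 KO libraries, and the other 4 HCT116 libraries lay above them. The difference of -0.74 in log2 units (SE 0.28) was not called (adjusted p = 0.0904 in edgeR). It was -1.28 within batch 1 and 0.08 within batch 2.

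S100P (ENSG00000163993, hg38 chromosome 4, 6693878 to 6697170, plus strand), a member outside the cluster that binds and activates ezrin, was at 3.34 and 3.88 CPM in HCT116 replicates 2 and 3, at 0.278 CPM in replicate 1 and at 0.0155 to 0.0835 CPM in batch 4. The DNMT1 KO libraries were at 0.353, 0.408, 0.698 and 0.208 CPM, within the range of HCT116. No difference was called (-1.56 in log2 units, SE 1.15, adjusted p = 0.421 in edgeR), and the direction differed between batches, at 0.34 in batch 1 and -2.69 in batch 2.

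S100A9 (ENSG00000163220, hg38 chromosome 1, 153357854 to 153361023, plus strand), the calprotectin subunit of neutrophils and monocytes, had no count in any HCT116 library, which with a floor of 3 counts allows up to 0.0349 CPM in the deepest and 0.0847 CPM in the shallowest. DNMT1 KO replicates 1 and 3 had 4 and 8 counts, and replicates 2 and 4 had none. Both counts were even, as most low counts of these libraries were, and whether both mates of a read pair were counted was not tested. The gene did not pass the filter. With no filter it was called higher (edgeR adjusted p = 0.0406). S100A8, its partner in calprotectin, and S100A12 had no count in any library.

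Levels of different genes were compared per length as TPM (counts divided by the exonic length of each gene, scaled to the same sum in every library). The 10 S100 genes summed to 6119 ± 2042 TPM in HCT116 cells (SD, n = 6) and to 1937 ± 396 TPM in DNMT1 KO cells (SD, n = 4). HCT116 libraries spanned 3717 to 9165 TPM and DNMT1 KO libraries 1585 to 2501 TPM, without overlap. S100A6 alone gave 42.5 to 65.4% of that sum in HCT116 libraries and 59.0 to 66.9% in DNMT1 KO libraries.

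**Figure D2:**
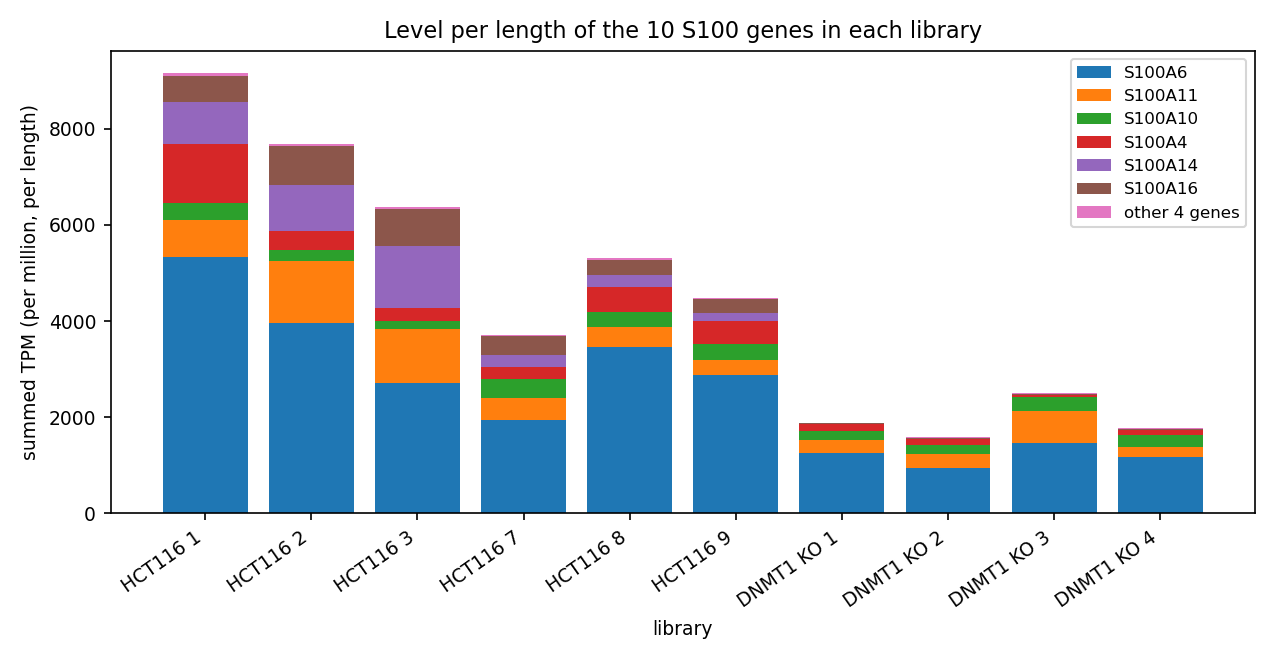
Summed TPM of the 10 S100 genes in each library, stacked by gene. S100A6 is the largest part of every bar, and S100A14 and S100A16, visible in each HCT116 bar, are thin in every DNMT1 KO bar.

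In HCT116 cells the order of mean level was S100A6 (3384 TPM), S100A11 (724 TPM), S100A14 (623 TPM), S100A4 and S100A16 (524 TPM each), S100A10 (302 TPM), S100A2 (16.3 TPM), S100A3 (13.9 TPM), S100P (6.85 TPM) and S100A9 (0 TPM). S100A6 exceeded S100A11, and S100A10 exceeded S100A2, without overlap between libraries. The neighbours from S100A11 down to S100A10 in that order overlapped in their spread, as did S100A2, S100A3 and S100P. In DNMT1 KO cells S100A6 (1213 TPM) was again first, followed by S100A11 (357 TPM), S100A10 (232 TPM), S100A4 (101 TPM), S100A16 (15.5 TPM), S100A2 (7.55 TPM), S100A3 (6.25 TPM), S100A14 (2.71 TPM), S100P (2.62 TPM) and S100A9 (0.305 TPM). These are orders of group means, and in HCT116 cells the order in the middle differed between batches. S100A14 was below S100A4, S100A16 and S100A10 in all 3 HCT116 libraries of batch 4, as it was below S100A4 and S100A10 in every DNMT1 KO library, and it exceeded S100A4 in 2 of 6 HCT116 libraries, both of batch 2. S100A16 exceeded S100A10 in 4 of 6 HCT116 libraries. In DNMT1 KO cells S100A14 overlapped S100A3 and S100P in its spread. Reads were mapped with Bowtie2, which does not split a read across an exon junction, and the effect on the level of each gene was not measured.

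Of the 10 other S100 genes listed, S100A1, S100A5 and S100A13 passed the filter. All 3 had a log2 fold change below 0, as had 10482 of all 19279 genes tested. S100A13, a factor in the release of FGF1, was at 33.2 ± 10.7 CPM in HCT116 cells (SD, n = 6) and 12.2 ± 2.41 CPM in DNMT1 KO cells (SD, n = 4), without overlap, and was called lower (-1.44 in log2 units, SE 0.29, adjusted p = 0.00286 in edgeR), though not in batch 2 alone (-1.39, adjusted p = 0.0699). Of its exonic bases, 33.5% are shared with other genes, among them S100A1 on the opposite strand, and the settings named for the counting include no strand option, so its counts are uncertain. S100A5 (-0.85, adjusted p = 0.267) and S100A1 (-0.54, adjusted p = 0.590) were at 0.19 to 1.29 CPM and were not called. S100A7, an antimicrobial S100 gene of skin, had no count in HCT116 libraries and 4, 8, 39 and 0 counts in DNMT1 KO replicates 1 to 4. From the start of S100A6 to the start of S100A13, all 8 S100 genes were tested and 7 were called lower. Both ends of this stretch are called genes, so the count depends on where the stretch was cut. Of all genes tested, 6.49% were called lower. S100A1, which overlaps S100A13 and starts beyond that point, was not called. The S100 genes just before S100A6 (S100A9, S100A12, S100A8, S100A7A and S100A7) were not tested.

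**Figure D3:**
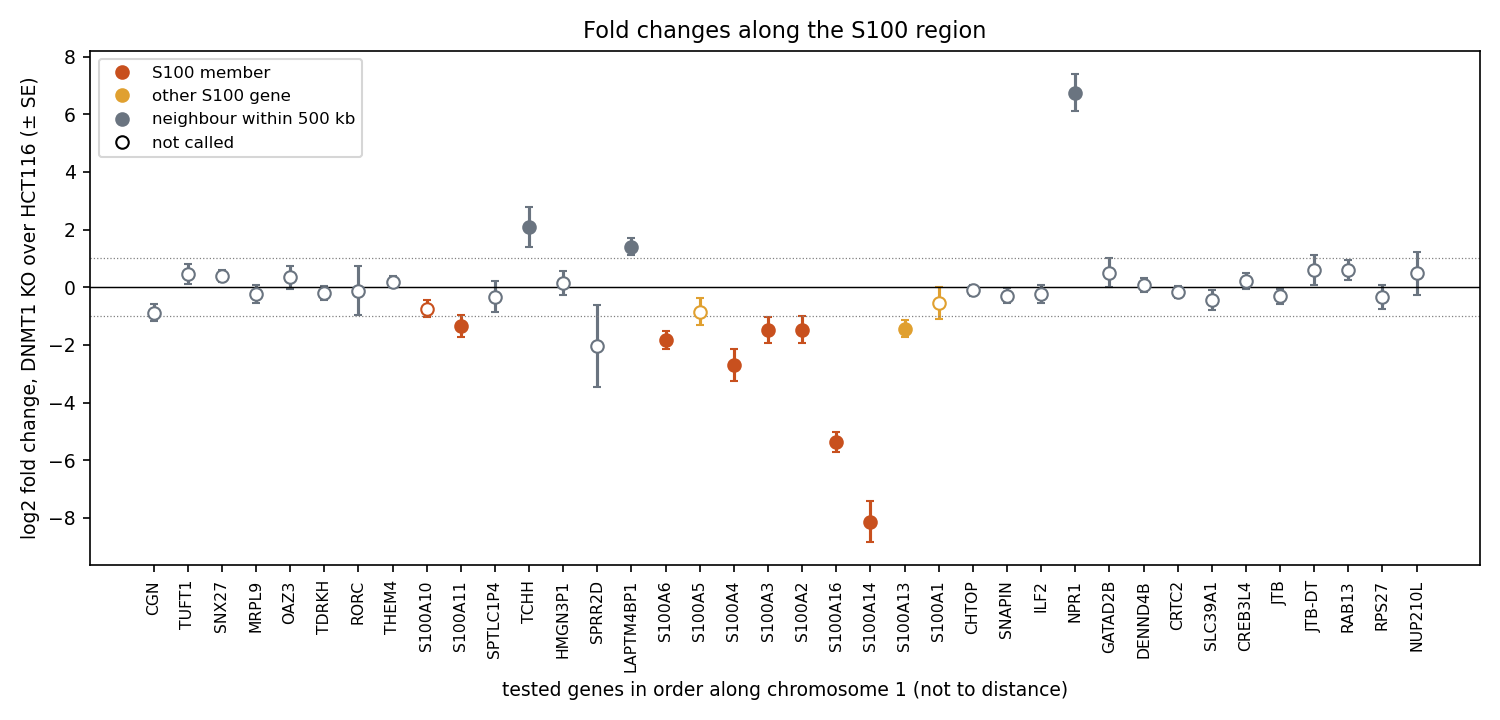
Log2 fold change of DNMT1 KO over HCT116 (± SE) for the tested S100 genes of chromosome 1 and the tested genes with a symbol within 500 kb of a member, in order of position and not to distance. Filled points were called. S100 genes lie below 0 throughout, with S100A16 and S100A14 lowest. None of the 27 neighbours shown was called lower, beside 6.49% of all genes tested.

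The change was compared with that of the surrounding genes. Within 500 kb of the chromosome 1 members, 27 other genes with a symbol were tested, of which 0 were called lower and 3 higher by edgeR's quasi-likelihood test. Over all genes tested the shares were 6.49% lower and 7.42% higher, so few calls would be usual among 27 genes. The 27 neighbours lie outside the stretch from S100A6 to S100A13. Their median log2 fold change was 0.09, against -1.66 for the 8 tested members on chromosome 1. CHTOP, the first tested gene past S100A1 and chosen for that position after its values were seen, was at 142 ± 10.1 CPM in HCT116 cells (SD, n = 6) and 132 ± 18.9 CPM in DNMT1 KO cells (SD, n = 4), with a log2 fold change of -0.10 (edgeR adjusted p = 0.778). The 3 called higher were NPR1, the receptor of atrial natriuretic peptide, TCHH and LAPTM4BP1. NPR1 rose from 0.027 to 3.35 CPM (6.75 in log2 units, SE 0.64, adjusted p = 3.6e-06 in edgeR). TCHH, which encodes the hair follicle protein trichohyalin and was the only tested gene of the 7 S100-fused genes, had a log2 fold change of 2.09 (edgeR adjusted p = 0.0479), with DNMT1 KO replicate 3 at 2.51 CPM against 0.347 to 0.656 CPM in the others and 0.641 CPM in HCT116 replicate 3, so the groups overlapped. It was not called with batches 1 and 2 and batch as a term (2.17, adjusted p = 0.123) or in batch 2 alone (1.83, adjusted p = 0.36). LAPTM4BP1 (1.41, edgeR adjusted p = 0.00512) is a pseudogene whose reads may belong to its parent gene. Its groups overlapped, with DNMT1 KO replicate 3 at 54.0 CPM and HCT116 replicate 8 at 56.0 CPM. The middle of the 1309.9 kb between S100A11 and S100A9 lies farther than 500 kb from either and was not examined.

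Batches were examined because batch 4 holds HCT116 libraries alone and batch 3 a DNMT1 KO library alone. With batches 1 and 2 and batch as a term, 6 of the 9 genes were called lower (6.98% of genes in that fit), the exception among the 7 being S100A2 (log2 fold change -1.28, adjusted p = 0.0996). In batch 2 alone, with 2 libraries per group, 5 were called lower (4.08% of genes): S100A11, S100A6, S100A16, S100A14 and S100P. In that batch the log2 fold change of S100A14 was -8.77 and that of S100A16 was -5.98, against ratios of -8.43 and -5.66 in batch 1 with 1 library per group. Between HCT116 batch 4 and HCT116 batches 1 and 2, which share these HCT116 libraries with the main comparison, 3 of the 9 genes were called, all lower in batch 4. Of all genes in that comparison 8.03% were called, and 4.94% were called lower. They were S100A14 (-2.07 in log2 units, SE 0.36, adjusted p = 0.006 in edgeR), S100A11 (-1.24, adjusted p = 0.0337) and S100P (-5.41, adjusted p = 0.00489). For S100A14 that difference between batches of 1 genotype was smaller than the difference between the genotypes in either batch, and for S100A11 it was of the same order (-1.91 in batch 1 and -1.59 in batch 2).

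**Figure D4:**
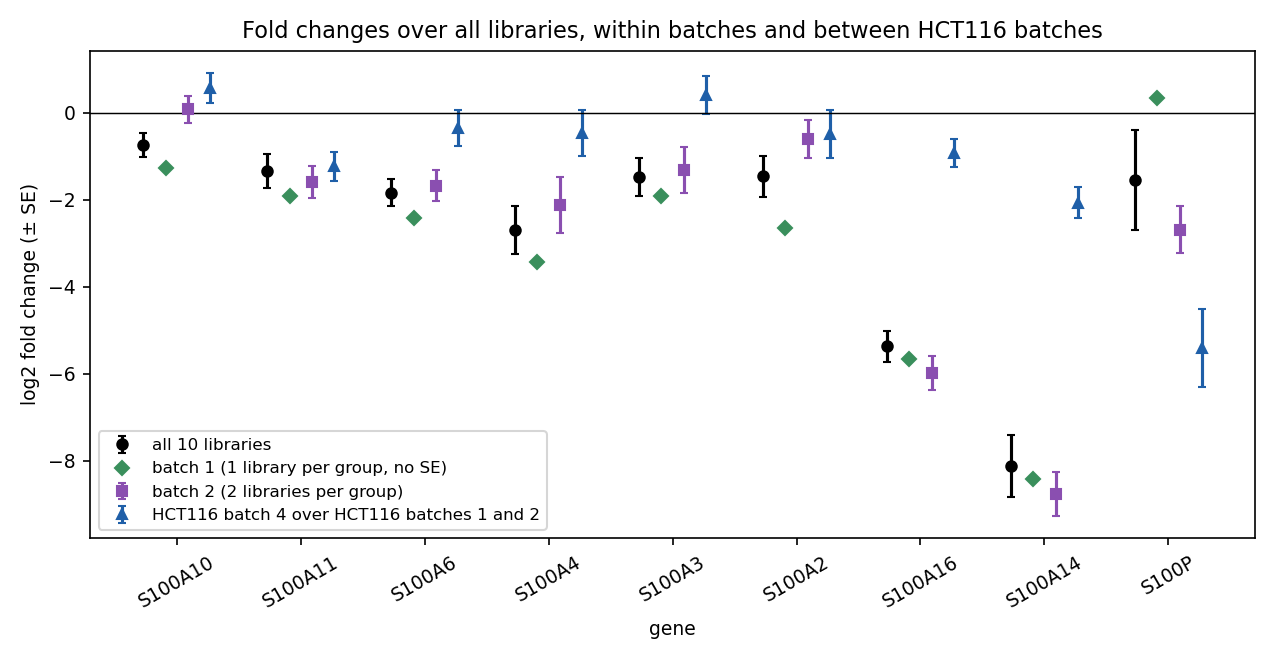
Log2 fold changes (± SE) of the 9 tested S100 genes for DNMT1 KO over HCT116 in all 10 libraries, within batch 1 (no SE) and within batch 2, and for HCT116 batch 4 over HCT116 batches 1 and 2. S100A14 and S100A16 lie below -5 in each genotype contrast, whereas S100A10 and S100P change sign between batches.

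Binding partners, receptors and effectors of S100 proteins were read from a list of 20 genes, of which 17 were tested. Of these, 4 were called lower and 2 higher, with a median log2 fold change of -0.22. Over all genes tested 6.49% were called lower and 7.42% higher, with a median of -0.07. Among the annexins, ANXA1, the partner of S100A11, fell from 267 ± 98.2 CPM (SD, n = 6) to 69.9 ± 13.7 CPM (SD, n = 4), -1.93 in log2 units (SE 0.30, adjusted p = 0.000326 in edgeR). ANXA2, the partner of S100A10, fell from 528 ± 171 to 234 ± 66.5 CPM (-1.17, SE 0.30, adjusted p = 0.0141), but was not called with batches 1 and 2 and batch as a term (-1.02, adjusted p = 0.0747) or in batch 2 alone (-0.75, adjusted p = 0.369). ANXA11 (-0.89, adjusted p = 0.0181) passed the adjusted p without reaching the fold change limit. It reached that limit with batches 1 and 2 and batch as a term (-1.02, adjusted p = 0.0238). ANXA5 (0.09) and ANXA6 (0.74) were not called, although ANXA6 was called higher with batches 1 and 2 and batch as a term (1.04, adjusted p = 0.043). Among cytoskeletal partners, EZR, which encodes the membrane-actin linker ezrin, fell from 2837 ± 993 to 480 ± 78.4 CPM (-2.56, SE 0.32, adjusted p = 4.81e-05), without overlap. MYH9, the myosin heavy chain bound by S100A4, had a log2 fold change of -0.23 (adjusted p = 0.701), and CACYBP, the partner of S100A6, of -0.24 (adjusted p = 0.772). Of the plasminogen activators, which act with the S100A10-annexin A2 complex at the cell surface, PLAU was lower (-3.29, SE 0.83, adjusted p = 0.0131) and PLAT higher (1.25, SE 0.22, adjusted p = 0.000881). PLAU also differed between HCT116 batches (-2.83 in batch 4, adjusted p = 0.0088). Its groups overlapped, with DNMT1 KO replicate 3 at 85.9 CPM and HCT116 replicate 7 at 75.4 CPM. KCNK3, a potassium channel bound by S100A10, rose from 0.955 to 4.52 CPM (2.24, adjusted p = 0.00043). In batch 2 alone PLAT (1.25, adjusted p = 0.0807) and KCNK3 (2.10, adjusted p = 0.0764) were not called. Of the receptors for secreted S100 proteins, AGER had no count in any library and TLR4 did not pass the filter.

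Markers of cell types changed in both directions, and their part in the result was not tested. Of all genes tested, 6.49% were called lower and 7.42% higher. Of 10 epithelial markers, 9 were tested, 5 were called lower (EPCAM, CDH1, KRT8, KRT18 and CLDN4) and 1, VIL1, higher, and their summed level was 2686 to 6556 CPM in HCT116 libraries and 703 to 1521 CPM in DNMT1 KO libraries. Of 10 myeloid markers, 1 was tested and 0 were called by edgeR's quasi-likelihood test, with a summed level of 0.362 to 1.5 CPM in HCT116 and 1.23 to 1.97 CPM in DNMT1 KO libraries, and FCGR3A had no count. Of 10 fibroblast markers 4 were tested and 3 were called higher, COL3A1, LUM and PDGFRB, with sums of 6.49 to 19.8 and 16.7 to 21.6 CPM, and POSTN had no count. COL1A1, the other tested marker, went the other way without a call (-0.90 in log2 units, adjusted p = 0.183 in edgeR). At 6.15 to 19.5 CPM in HCT116 and 2.90 to 14.1 CPM in DNMT1 KO libraries, it made up most of the HCT116 sum. Of 5 endothelial markers 3 were tested and 2, PECAM1 and VWF, were called higher, with sums of 0.313 to 1.76 and 4.46 to 6.16 CPM.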

How the data were processed

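Gene counts were those the authors deposited, 1 table per library. According to the study and the labels, polyadenylated RNA was made into libraries with a stranded kit and sequenced in pairs, reads were checked with FastQC 0.11.4, trimmed with Trim Galore 0.4.1 and mapped to hg38 with Bowtie2, reads of low mapping quality were removed with SAMtools, and featureCounts counted reads over exons per Ensembl gene. In 9 libraries 64.4 to 70.0% of genes with 1 to 10 counts had an even count, against 39.9% in DNMT1 KO replicate 4, so the counts of those 9 were halved in 1 alternative fit. No 2 libraries were alike within sampling noise.

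The counts were fitted with edgeR 4.0.16 in R 4.3.3 after filterByExpr (TMM scaling, quasi-likelihood test over all 10 libraries). Genes were called at a Benjamini-Hochberg adjusted p under 0.05 over all 19279 genes tested and an absolute log2 fold change above 1. Alternatives used DESeq2 1.42.0, limma 3.58.1 (voom), other scalings and filters, batch, replicate numbers and leaving out each library. The fits were tested on simulated data. Exact permutation tests on log2(CPM + 0.5) covered 210 splits, two-sided, with a smallest p of 0.00952. TPM used the exonic length in the tables. Promoters came from RefSeq (GRCh38.p14) and matched all 10 genes.

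The members and lists were chosen with earlier results of these data known. Named were all members, other S100 and S100-fused genes that passed the filter, called partners and up to 4 others, and called neighbours within 500 kb. Count tables of 3 further HCT116 libraries that match no listed sample were not used. The p-values measure the spread between libraries of 1 DNMT1 KO line.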

Additional observations from a re-analysis of the deposited data

Results flagged for a closer look

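S100A2 in HCT116 replicate 1 stood far from the other libraries of its group, at 29.8 CPM against 5.1 to 11.8 CPM in the other 5, a gap of 0.731 of the range of the group. Of 35 gene and group combinations examined this was the 1 that stood out, where chance would give about 1.75.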

How the results depend on the processing

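S100A6, S100A16 and S100A14 were called lower in all 22 alternative fits, and S100A4 in 21. The number of S100 genes called lower, 7, was 4 with library totals alone and 4 to 7 when a library was left out (4 without HCT116 replicate 1, DNMT1 KO replicate 1 or DNMT1 KO replicate 2), and the number called higher, 0, was 1 (S100A9) with no filter. When each library was left out in turn, log2 fold changes ran from -0.83 to -0.63 for S100A10, -1.68 to -1.15 for S100A11, -1.94 to -1.61 for S100A6, -2.89 to -2.20 for S100A4, -1.86 to -1.20 for S100A3, -1.58 to -0.88 for S100A2, -5.50 to -5.20 for S100A16, -8.32 to -7.77 for S100A14 and -1.95 to -0.79 for S100P. S100A2 was not called with relative log expression (RLE) size factors (-1.44), library totals alone (-1.25), at least 10 counts in every library (-1.44), voom (-1.22), batches 1 and 2 with batch as a term (-1.28), batch 2 alone (-0.61) or halved counts (-1.44). S100A11 was not called with library totals alone (-1.13) or with the gene length trend removed (-1.24), S100A3 with library totals alone (-1.28) or in batch 2 alone (-1.32), and S100A4 in batch 2 alone (-2.13), with 2 libraries per group. S100P passed in batch 2 alone (-2.69), and turned positive under voom (0.79) and within batch 1 (0.34). S100A10 turned positive in batch 2 alone (0.08). Within batch 1, with no test, S100A6 was at -2.42 and S100A2 at -2.66. The cause was not tested. Over all genes, 734 were higher and 766 lower under the filter of 10 counts per library, and 815 and 798 in batch 2 alone. S100P could not be fitted with at least 10 counts in every library. Same-numbered replicates 1, 2 and 3 correlated at 0.41, -0.17 and 0.36 in their deviations from the group means, so the numbers were not taken to pair the samples. With the replicate block 6 S100 genes were called lower, S100A2 (-1.30, adjusted p = 0.123) being lost, and genes over the whole table numbered 1232 higher and 1235 lower.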
